A study of Mus musculus with 10 samples.

Results

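The 51 genes described here encode proteins of the complement and coagulation systems. They were taken as a named list of gene symbols, by pathway arm and by role, and all 51 are among the 21792 genes with a value in every mouse. The values come from the kidney cortex of 10 male wild-type C57BL/6 mice, treated from 8 weeks of age. The 4 sham mice received PBS, and the 6 AAN mice were given aristolochic acid, a plant toxin that damages the proximal tubule, as 1 intraperitoneal dose of 5 mg/kg. All mice were killed at day 28, when aristolochic acid nephropathy (AAN) serves as a model of kidney fibrosis, and each mouse gave 1 RNA-seq library. The comparison of AAN with sham asks which of these genes differ in level in the fibrotic cortex.

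Complement is a cascade of proteases and binding proteins that opsonizes targets, releases the chemoattractant fragments C3a and C5a and assembles a membrane pore. The classical, lectin and alternative pathways all cleave C3, and membrane and soluble regulators stop the cascade on host cells. Coagulation starts when tissue factor meets factor VII and ends with thrombin cutting fibrinogen into fibrin. Most of the circulating proteins of both systems come from the liver, while the kidney tubule, macrophages and endothelium make some of them locally.

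Levels are given as FPKM, the number of fragments per kilobase of a gene and per M of mapped fragments, which allows levels to be compared between genes. The depth recovered from the values was 15.8 to 17.4 M fragments in sham mice and 13.4 to 16.5 M in AAN mice. A log2 fold change is the mean of log2(FPKM + 0.1) in AAN mice minus that in sham mice, fitted with limma over the 17129 genes whose mean over the mice reached 0.1 FPKM. A gene was called at an adjusted p of at most 0.05 together with a change of at least 2-fold. Most genes of the cortex were higher in AAN mice on this scale: the median log2 fold change of all genes tested was 0.75, and 82.3% lay above 0. Scaling the mice by the median of ratios moved that median to 0.05. The cortex carried its own markers, with proximal tubule markers summing to 21350 to 35900 FPKM and podocyte markers to 45.6 to 89.4 FPKM in sham mice. In AAN mice 7 of the 10 proximal tubule markers were lower, to sums of 1315 to 3662 FPKM (*Kap* alone was at 16680 to 33360 FPKM in sham and 303 to 2204 FPKM in AAN mice, and *Slc5a12* was not lower), and all 8 injured tubule markers were higher.

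Of the 51 genes, 44 passed the filter on low values. The call was higher in AAN mice for 29 genes, lower for 3 (*Mbl1*, *C8a* and *C8g*) and neither for 12. Among all genes tested, 35.8% were called higher and 3.43% lower. The median log2 fold change of the 44 was 2.10, with a range of -2.21 to 6.65. In 25 of them every AAN mouse was above every sham mouse, which held for 40.3% of all genes tested, and in 2 every AAN mouse was below, which held for 3.25%. After the median of ratios scaling 23 were called higher (18.9% of all genes tested) and 4 lower (10.7%), with a median of 1.38. The scaling removed the calls of *C2*, *Cfd*, *C7*, *Cd46*, *Fga* and *Thbd*, and *F5* became lower. *Masp2*, *Hc*, *C8b*, *C9*, *Vsig4*, *F2* and *Plg* were below the filter, and *F2*, which encodes prothrombin, did not exceed 0.0351 FPKM in any mouse.

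**Figure D1:**
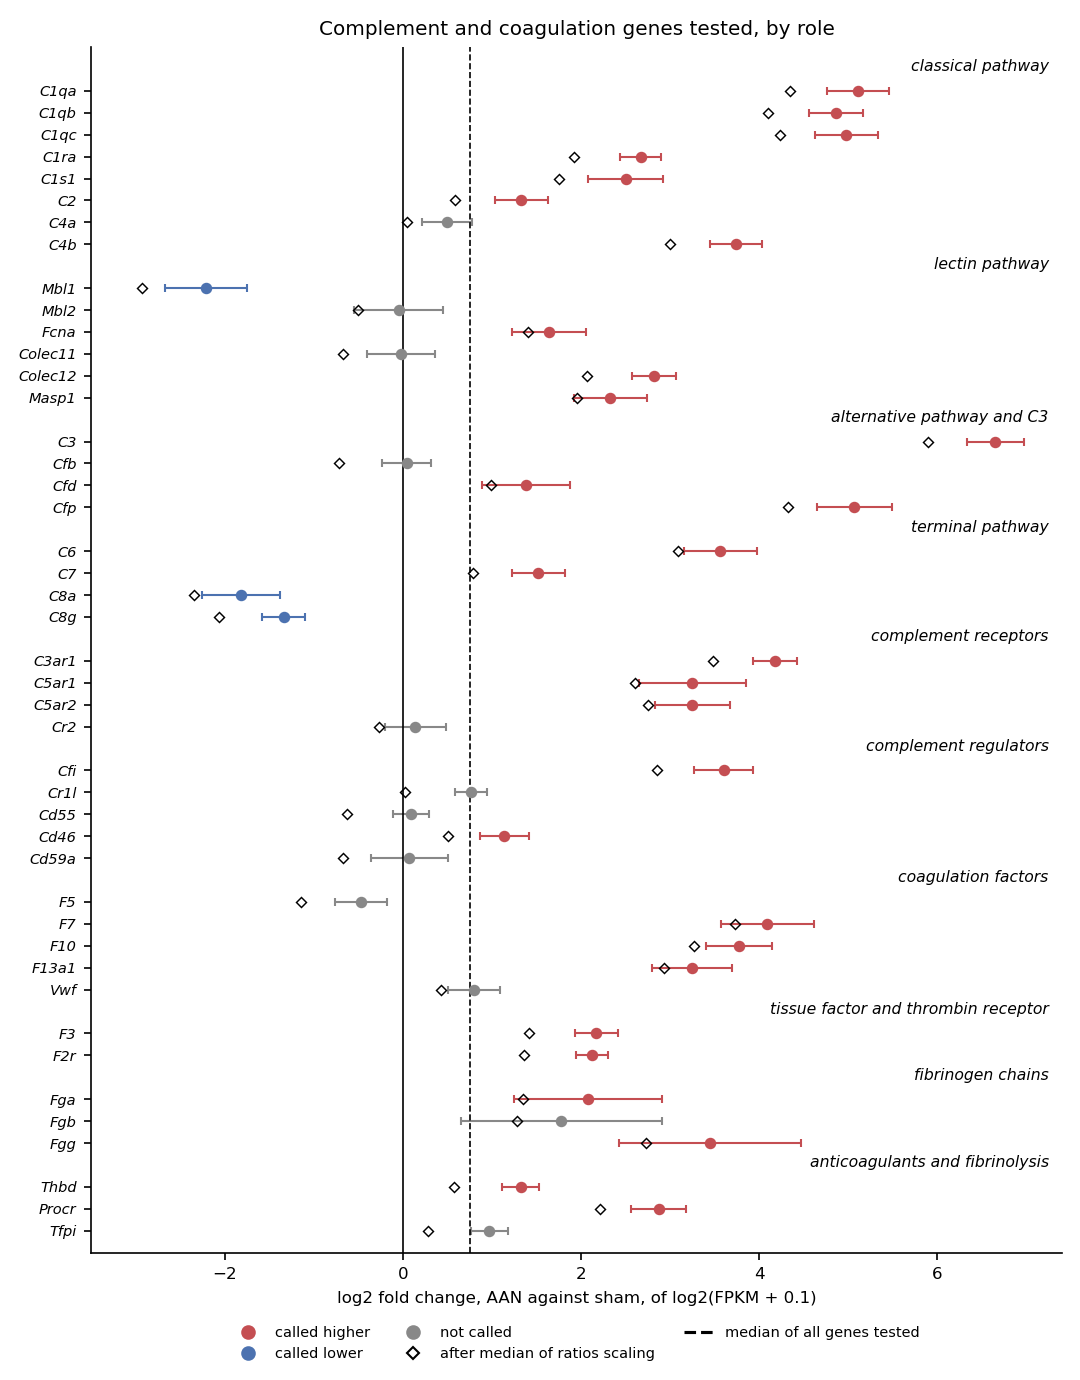
Log2 fold change of AAN against sham mice (x axis, log2 of FPKM + 0.1) for the 44 genes tested, grouped by role, with bars for the standard error of the limma fit. Filled points show the FPKM as deposited, open diamonds the values after median of ratios scaling, and the dashed line the median of all genes tested, 0.75; *C3* lies farthest right at 6.65 and *Mbl1* farthest left at -2.21.

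In the classical pathway, 7 of 8 genes were called higher and 1, *C4a*, was not. The 3 chains of C1q, the molecule that recognises immune complexes and dying cells, had the largest changes of this pathway. *C1qa* was at 17.5, 15.6, 15.7 and 22.7 FPKM in the sham mice and at 222 to 936 FPKM in the AAN mice (median 738). All AAN mice were far above all sham mice, and the lowest, B614, was still at 222 FPKM. The log2 fold change of *C1qa* was 5.11 (SE 0.35, adjusted p = 3.77e-07), and those of *C1qb* and *C1qc* were 4.86 and 4.98. These 3 genes lie side by side on chromosome 4 of GRCm38, between 136880129 and 136898803 on the minus strand, and the ratio of *C1qa* to *C1qb* stayed within 0.957 to 1.26 in sham and 0.998 to 1.49 in AAN mice.

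*C1ra* changed less than *C1qa*. This protease, which cleaves C1s within the C1 complex, was at 3.64, 5.93, 4.61 and 4.70 FPKM in sham mice and at 18.8 to 46.5 FPKM in AAN mice (median 30.5). Its groups did not overlap either, with a log2 fold change of 2.67 (SE 0.23, adjusted p = 2.09e-06). Within each mouse, *C1ra* minus *C1qa* on the log2 scale was -1.90 ± 0.42 in sham (n = 4, SD) and -4.34 ± 0.42 in AAN mice (n = 6, SD), which differed by -2.44 (two-sided exact permutation over 210 splits, p = 0.00476, the lowest value possible, adjusted p = 0.0143 over 15 gene pairs). *C1s1*, the protease that cuts C4 and C2, rose by 2.50 (SE 0.42). Set against *Serping1*, the inhibitor of C1r and C1s, which is not among the 51 genes and was at 11.3 ± 4.09 FPKM in sham (n = 4, SD) and 81.6 ± 23.5 FPKM in AAN mice (n = 6, SD), *C1s1* showed a difference of -0.36 (SE 0.53, exact permutation test, adjusted p = 0.665).

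*C4b*, the source of the classical C3 convertase together with C2, rose from 1.95 ± 0.522 FPKM (n = 4, SD) to 27.9 ± 9.70 FPKM (n = 6, SD), with a log2 fold change of 3.74 (SE 0.29). *C4a* is a near-identical copy and stayed at 0.0604 to 0.281 FPKM over all mice, so how fragments were shared between the copies is uncertain. Their sum was 1.32 to 2.48 FPKM in sham and 17.5 to 38.7 FPKM in AAN mice, and in the sum, too, all AAN mice were above all sham mice. *C2* was at 7.19, 2.73, 4.30 and 5.29 FPKM in sham and at 6.46 to 17.4 FPKM in AAN mice (median 12.8). The groups overlapped, and the log2 fold change of 1.33 (SE 0.30, adjusted p = 0.00248) went to 0.58 (adjusted p = 0.0767) after median of ratios scaling. *C2* also overlaps 2 other genes with values, *Gm20547* and *Zbtb12*, and *Zbtb12* was at 0.595 to 2.32 FPKM in sham and 4.71 to 9.12 FPKM in AAN mice, whose part in the value was not tested.

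Of 10 macrophage markers 9 were called higher, and their sum was 19.2 to 47.9 FPKM in sham and 1300 to 3853 FPKM in AAN mice, with *Timd4* listed at 0 in every sham mouse. *Lyz2* made up most of that sum in AAN mice, going from 8.42 to 32.8 FPKM in sham to 1154 to 3525 FPKM in AAN mice, while *Adgre1* went from 0.664 to 2.18 FPKM to 9.66 to 22.3 FPKM. *C1qa* minus *Adgre1*, a macrophage marker, was 3.93 ± 0.66 in sham (n = 4, SD) and 5.23 ± 1.01 in AAN mice (n = 6, SD). That difference of 1.3 did not pass after adjustment (exact permutation test, p = 0.0476, adjusted p = 0.0893). Without B614 it was 1.68 with an adjusted p of 0.0170, and without any other 1 mouse it did not pass (0.97 to 1.44, exact permutation test, adjusted p of 0.134 to 0.238). The log2 fold change of *Adgre1* was 3.81, where the 10 markers ranged from 0.73 (*Mertk*) to 6.83 (*Lyz2*) with a median of 4.28. *C1qa* was not paired with another macrophage marker. In bulk cortex, a change in the number of cells of a type and a change in RNA per cell cannot be told apart. The part of the macrophages in the level of C1q was not tested.

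The lectin pathway was mixed: 3 of 7 genes were called higher, 1 lower and 2 neither, with *Masp2* below the filter. *Mbl1*, a mannose-binding lectin that starts this pathway, was at 3.59, 4.92, 5.00 and 3.61 FPKM in sham mice and at 0.162 to 1.73 FPKM in AAN mice (median 1.06). No AAN mouse reached a sham mouse, and the log2 fold change was -2.21 (SE 0.46, adjusted p = 0.00137). *Mbl2*, the second mannose-binding lectin, was at 0 to 0.552 FPKM in sham and 0.111 to 0.347 FPKM in AAN mice and was not called. *Colec12*, a scavenger receptor with a lectin domain, went the other way. It was at 1.93, 4.16, 2.08 and 2.41 FPKM in sham and at 12.5 to 26.1 FPKM in AAN mice (median 18.1), with no overlap and a log2 fold change of 2.82 (SE 0.25, adjusted p = 2.04e-06). *Fcna*, a ficolin, was called higher but stayed at or below 0.628 FPKM in every mouse. Over the AAN mice its mean was at most 6.50 fragments. *Masp1*, a protease of the lectin complexes, rose to 0.217 to 1.5 FPKM from at most 0.132 FPKM, and it overlaps *Rtp4*, which went from 3.32 ± 1.11 FPKM (n = 4, SD) to 28.8 ± 8.22 FPKM (n = 6, SD). The part of *Rtp4* in this value was not tested. *Colec11*, a soluble collectin, was not called (log2 fold change -0.02, SE 0.38), but it was called lower after quantile normalization (-1.24, adjusted p = 0.0238).

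*C3*, on which all pathways meet, had the largest change of the 51 genes. It lies on chromosome 17 of GRCm38 from 57203970 to 57228136 on the minus strand. Its level was 4.43, 2.60, 3.30 and 3.46 FPKM in the sham mice and 175 to 646 FPKM in the AAN mice (median 396). The lowest AAN mouse, B630, was at 175 FPKM and the highest sham mouse at 4.43 FPKM. The log2 fold change was 6.65 (SE 0.32, adjusted p = 1.26e-07), and 5.90 after median of ratios scaling. By size it was above 99.9% of all genes tested.

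*Cfp* and *Cfb* of the alternative pathway differed from each other. *Cfp* encodes properdin, which stabilises the alternative C3 convertase, and rose from 1.77 ± 0.672 FPKM (n = 4, SD) to 66.0 ± 25.1 FPKM (n = 6, SD), a log2 fold change of 5.07 (SE 0.42). *Cfb* encodes factor B, the protease of the same convertase. It was at 81.1, 32.9, 37.0 and 42.9 FPKM in sham mice and at 27.1 to 61.2 FPKM in AAN mice (median 49.5). The AAN range lay within the sham range but for B630 at its low end, and the log2 fold change was 0.04 (SE 0.28, adjusted p = 0.906). After median of ratios scaling it turned to -0.72 (adjusted p = 0.0198, under the 2-fold limit). *Cfb* was the most abundant complement gene of the sham cortex in this list, and the ratio of *C3* to *Cfb* went from 0.0547 to 0.0894 in sham mice to 4.87 to 10.6 in AAN mice. *Cfb* shares its locus with *Gm20547*, listed at 28.4 ± 6.67 FPKM in sham (n = 4, SD) and 47.9 ± 16.6 FPKM in AAN mice (n = 6, SD), so fragments of the pair cannot be told apart with certainty.

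*Cfd* encodes factor D, also known as adipsin, which cuts factor B. It was at 0.0619, 0, 0.132 and 0.197 FPKM in sham and 0.133 to 1.38 FPKM in AAN mice (median 0.342). Over the AAN mice its mean was at most 6.80 fragments. The groups overlapped, B614 stood highest, and the log2 fold change of 1.38 (SE 0.49, adjusted p = 0.0285) was 0.99 (adjusted p = 0.132) after median of ratios scaling. It also lost its call without B607, B634 or B642 (log2 fold change 1.09 to 1.32, adjusted p of 0.0522 to 0.0977). Of 7 fat cell markers with values, *Adipoq*, *Plin1* and *Retn* did not exceed 0.199 FPKM in any mouse, while the sum of the list was 5.03 to 9.24 FPKM in sham and 11 to 16.7 FPKM in AAN mice. Most of that sum was *Fabp4*, the 1 marker called higher of 2 tested (1.31, SE 0.25, adjusted p = 0.000691), and the part of fat cells in the level of *Cfd* was not tested. The pair *Cfd* minus *Adipoq* did not pass (difference 1.17, SE 0.57, exact permutation test, adjusted p = 0.0714) but did with the B mice alone (1.61, adjusted p = 0.0446), and both genes are near the limit of the depth.

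The promoter window of *C3* is shown because this gene changed most among the 51. It holds the 250 bases before the start of transcription, from RefSeq on GRCm38.p6, on the minus strand at chr17:57228137-57228386, written 5′ to 3′. The capitals mark a match to the C/EBP motif TTGCNNAA, searched on both strands, from 45 to 38 bases before the start.
C3: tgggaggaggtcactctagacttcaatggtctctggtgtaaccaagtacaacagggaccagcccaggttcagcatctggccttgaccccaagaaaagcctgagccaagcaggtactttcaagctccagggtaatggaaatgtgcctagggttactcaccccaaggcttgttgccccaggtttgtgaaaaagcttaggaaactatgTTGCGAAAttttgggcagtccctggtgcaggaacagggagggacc
Over all 32851 promoter windows of this length, 9.56% held this motif, against 7 of the 45 windows of the 40 matched genes here. A match is a description of letters and not a site shown to be bound. The STAT motif TTCNNNGAA was in 6 of the 45 windows (7.02% of all windows) and the STAT3 element CTGGGAA in 7 (9.10%), both on either strand. The kappa B and HNF1 motifs were in 0 of the 45 (1.21% and 0.00913% of all windows), and the interferon element ISRE was in 2, those of *Cd59a* and *Colec11* (2.98%). As the HNF1 pattern was in 3 and the kappa B pattern in 397 of all 32851 windows, 0 of 45 cannot set these genes apart. Looser matches to these patterns were not searched, so sites of that kind are not shown to be absent. Not matched to a window were *C1qa*, *C2*, *C4a*, *C4b*, *Colec12*, *Masp1*, *Cfb*, *Cfi*, *Vwf*, *Thbd* and *Plg*.

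The terminal pathway, whose proteins form the membrane pore, was split. Of its 7 genes 2 were called higher, 2 lower, and 3 were below the filter. *C6* was at 0, 0.0526, 0.114 and 0.0632 FPKM in sham and at 0.571 to 2.76 FPKM in AAN mice (median 2.19), with no overlap and a log2 fold change of 3.56 (SE 0.41, adjusted p = 1.77e-05), which was 1.4 with a pseudocount of 1 and 5.11 with 0.01. *C7* was at 1.01, 1.58, 1.23 and 1.5 FPKM in sham and at 1.99 to 6.69 FPKM in AAN mice (median 4.24). Its groups did not overlap, but the log2 fold change of 1.52 (SE 0.30, adjusted p = 0.00108) fell short of the call at 0.79 (adjusted p = 0.0711) after median of ratios scaling.

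Both chains of C8 that could be tested were lower. *C8g*, the gamma chain, was at 3.68, 2.70, 2.72 and 3.74 FPKM in sham and at 0.867 to 2.12 FPKM in AAN mice (median 1.10). All AAN mice were below all sham mice, with a log2 fold change of -1.34 (SE 0.24, adjusted p = 0.000499). It overlaps *Fbxw5*, which was at 9.47 ± 3.94 FPKM in sham (n = 4, SD) and 11.6 ± 2.29 FPKM in AAN mice (n = 6, SD). *C8a*, the alpha chain, was at 0.841, 0.732, 0.145 and 1.44 FPKM in sham and at 0.0283 to 0.182 FPKM in AAN mice (median 0.121). Its groups overlapped through the sham mouse B636 alone, and the log2 fold change was -1.82 (SE 0.44, adjusted p = 0.00386). With a pseudocount of 1, *C8g* at -0.92 and *C8a* at -0.63 fell under the 2-fold limit. *C8b* was listed at 0 in 9 of 10 mice, *C9* in 5 of 6 AAN mice and did not exceed 0.0916 FPKM, and *Hc*, which encodes C5, was listed at 0 in all 4 sham mice and at 0.0184 to 0.216 FPKM in the AAN mice. At 0, up to 3 fragments are allowed, which is 0.0275 to 0.0357 FPKM for *Hc*.

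Of the receptors for complement fragments, 3 of 5 genes were called higher. *C3ar1*, the receptor for C3a, was at 0.929, 0.469, 0.564 and 0.662 FPKM in sham and at 8.32 to 18.3 FPKM in AAN mice (median 14.8). The groups were far apart, with a log2 fold change of 4.18 (SE 0.25, adjusted p = 1.97e-07). *C5ar1* and *C5ar2*, neighbours on chromosome 7 that encode receptors for C5a, both had a log2 fold change of 3.25 (SE 0.60 and 0.42). The AAN mouse B666 had only 0.745 FPKM of *C5ar1*, below the 1.88 to 10.2 FPKM of the other AAN mice, while its *C5ar2* was at 2.43 FPKM. *C3ar1* minus *Adgre1* differed by 0.37 (SE 0.31) and *C5ar1* minus *C5ar2* by 0.01 (SE 0.56), neither past the threshold (exact permutation test, adjusted p = 0.486 and 0.990). Neutrophil markers, 3 of 4 tested called higher, summed to 0.228 to 2.35 FPKM in sham and 2.64 to 15.7 FPKM in AAN mice, and their part was not tested. *Cr2*, the complement receptor of B cells, was not called (log2 fold change 0.14, SE 0.34), while all 6 B cell markers tested were higher, with sums of 0.786 to 1.66 FPKM in sham and 5.61 to 13.2 FPKM in AAN mice. *Vsig4*, a macrophage receptor for C3b, did not exceed 0.0710 FPKM in any mouse.

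**Figure D2:**
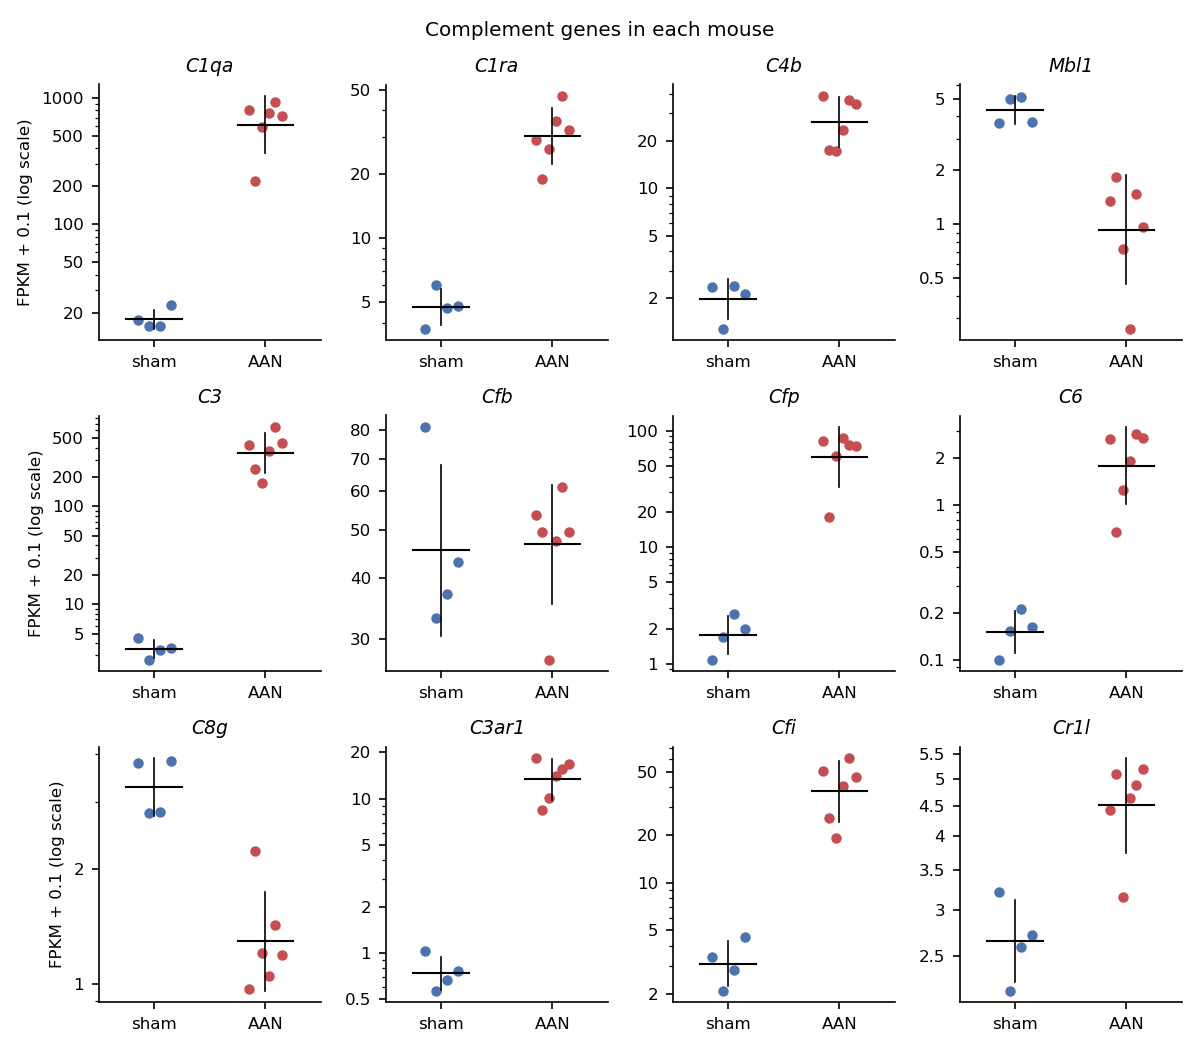
FPKM + 0.1 (y axis, log scale, each panel with its own range) of 12 complement genes in the 4 sham (blue) and 6 AAN mice (red), with 1 point per mouse, a horizontal bar for the mean and a vertical bar for 1 SD, both of the log2 values. In *C1qa*, *C3*, *Cfp*, *C6* and *C3ar1* the groups are widely separated, *Mbl1* and *C8g* are lower in AAN mice, and the *Cfb* groups lie over each other.

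Of the 5 regulators of complement, 2 were called higher and 3 were not called. *Cfi* encodes factor I, the protease that inactivates C3b. It was at 3.31, 1.98, 2.70 and 4.43 FPKM in sham and at 18.9 to 60.6 FPKM in AAN mice (median 43.3). All AAN mice were above all sham mice, with a log2 fold change of 3.60 (SE 0.33, adjusted p = 2.88e-06). *Cr1l* encodes Crry, the membrane regulator of rodent cells. It was at 3.12, 2.09, 2.49 and 2.62 FPKM in sham and at 3.05 to 5.10 FPKM in AAN mice (median 4.66). B630 overlapped the sham mice, and the log2 fold change of 0.76 (SE 0.18, adjusted p = 0.00340) was under the 2-fold limit and close to the median of all genes. *Cd46*, a membrane cofactor of factor I, was at 0.185, 0.302, 0.480 and 0.349 FPKM in sham and at 0.480 to 1.22 FPKM in AAN mice (median 0.783). The lowest AAN mouse was barely above the highest sham mouse, and the log2 fold change of 1.14 (SE 0.28, adjusted p = 0.00364) was 0.51 (adjusted p = 0.197) after median of ratios scaling and 0.96 without B607, under the 2-fold limit. *Cd46* also overlaps 2 other genes with values, *A330023F24Rik* and *Gm37132*, whose part in its level was not tested. *Cd55*, which speeds the decay of C3 convertases, and *Cd59a*, which blocks the membrane pore, had log2 fold changes of 0.09 (SE 0.20) and 0.07 (SE 0.43), and both turned below 0 after that scaling, to -0.63 (adjusted p = 0.0194, under the 2-fold limit) and -0.67 (adjusted p = 0.210).

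Differences of genes within a mouse depend on scaling between mice through the pseudocount alone. *C3* minus *Cfi* was 0.18 ± 0.36 in sham (n = 4, SD) and 3.23 ± 0.11 in AAN mice (n = 6, SD) on the log2 scale, a difference of 3.05 (exact permutation test, p = 0.00476, adjusted p = 0.0143). The levels of *C3* and *Cfi* in the AAN mice spanned 175 to 646 and 18.9 to 60.6 FPKM, yet their difference varied by an SD of only 0.11 over those mice. *C3* minus *Cr1l* was 0.39 ± 0.08 in sham (n = 4, SD) and 6.28 ± 0.54 in AAN mice (n = 6, SD), which differed by 5.89 with the same p-values by the exact permutation test. *Cd55* minus *Cd59a* differed by 0.02 (SE 0.48, exact permutation test, adjusted p = 0.990).

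**Figure D3:**
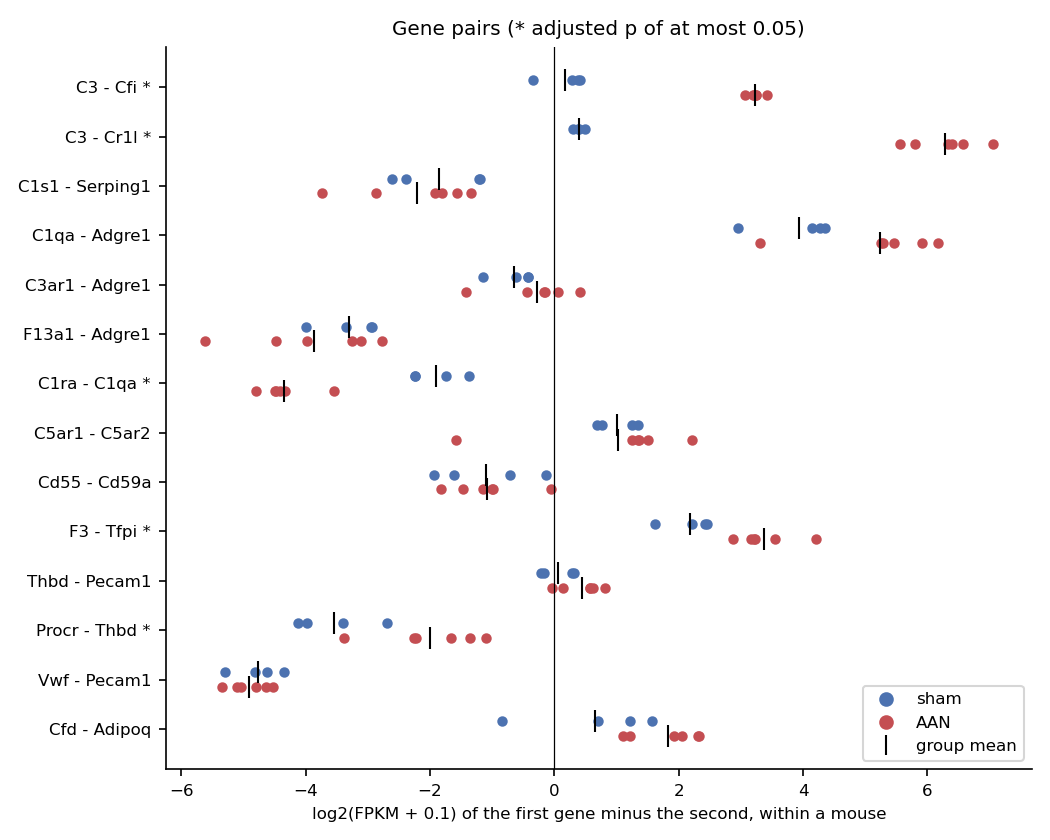
Difference of log2(FPKM + 0.1) between 2 genes within each mouse (x axis) for the pairs reported here, with sham mice in blue, AAN mice in red and ticks at the group means; an asterisk marks an adjusted p of at most 0.05. In both pairs with *C3* as the first gene all AAN mice lie to the right of all sham mice, and the 6 AAN values of *C3* minus *Cfi* lie close together around 3.23.

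Among the coagulation factors, 3 of 6 genes were called higher. *F7* and *F10* are neighbours on chromosome 8 and encode factor VII, the partner of tissue factor, and factor X, the protease it activates. *F7* was at 0.131 FPKM in the sham mouse B636 and listed at 0 in the other 3, where 3 fragments would allow 0.0928 to 0.120 FPKM, and it was at 0.583 to 3.86 FPKM in AAN mice (median 2.83). All AAN mice were above all sham mice, with a log2 fold change of 4.09 (SE 0.52, adjusted p = 4.08e-05). As the sham values are so low, this size depends on the pseudocount: it was 1.62 with 1 and 6.68 with 0.01. *F10* was at 0.0313, 0.0345, 0.111 and 0.188 FPKM in sham and at 1.10 to 3.82 FPKM in AAN mice (median 2.69), a log2 fold change of 3.77 (SE 0.37, adjusted p = 4.59e-06), which was 1.65 and 4.86 with those pseudocounts. *F13a1*, the fibrin-crosslinking subunit that macrophages and platelets hold, rose from at most 0.0436 FPKM to 0.357 to 2.65 FPKM, with a log2 fold change of 3.25, or 1.05 and 5.38 with those pseudocounts. Its difference from *Adgre1* was -0.56 (SE 0.50, exact permutation test, adjusted p = 0.506), but -1.98 (adjusted p = 0.0102) with a pseudocount of 1 and 1.45 with 0.01. Of the platelet markers tested 1 of 5 was higher, *Pf4*, and *Gp6* and *Gp1ba* were under 0.1 FPKM in all mice. The red blood cell markers, of which limma called 0 of 5 (0 also at an unadjusted p under 0.05), summed to 3.67 to 33.7 FPKM in sham and 12.6 to 40.6 FPKM in AAN mice.

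*F5* and *Vwf* were not called. *F5*, the cofactor of factor X, was at 1.02, 1.16, 1.22 and 0.735 FPKM in sham and at 0.451 to 1.57 FPKM in AAN mice (median 0.659). The groups overlapped, with B614 highest of all mice, and the log2 fold change of -0.47 (SE 0.29, adjusted p = 0.183) became -1.15 (adjusted p = 0.00789) after median of ratios scaling. *Vwf*, the platelet adhesion protein of endothelium, had a log2 fold change of 0.80 (SE 0.29, adjusted p = 0.0319), under the 2-fold limit, at levels no higher than 0.299 FPKM, and passed with a pseudocount of 0.01 (1.58, adjusted p = 0.0450).

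Tissue factor and the thrombin receptor both rose. *F3*, the tissue factor that starts coagulation, was at 3.85, 2.91, 3.63 and 2.96 FPKM in sham and at 10.2 to 26.7 FPKM in AAN mice (median 14.8). *F2r*, the thrombin receptor PAR1, was at 6.36, 8.30, 6.28 and 6.68 FPKM in sham and at 21.4 to 41.4 FPKM in AAN mice (median 30.9). Neither gene had overlapping groups, and the log2 fold changes were 2.17 (SE 0.24, adjusted p = 1.43e-05) and 2.12 (SE 0.18, adjusted p = 1.85e-06). *Tfpi*, the inhibitor of tissue factor and factor VII, was at 0.748, 0.451, 0.599 and 0.897 FPKM in sham and at 1.05 to 1.59 FPKM in AAN mice (median 1.41). Its groups did not overlap, yet the log2 fold change of 0.97 (SE 0.21, adjusted p = 0.00168) was just under the 2-fold limit, and it was over it, at 1.02 to 1.10, without B607, H249 or B614. *F3* minus *Tfpi* was 2.18 ± 0.39 in sham (n = 4, SD) and 3.37 ± 0.46 in AAN mice (n = 6, SD), a difference of 1.2 (exact permutation test, p = 0.00476, adjusted p = 0.0143).

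The receptors of the protein C system, which turns thrombin into an anticoagulant, rose as well. *Thbd*, or thrombomodulin, was at 6.67, 5.15, 3.96 and 4.86 FPKM in sham and at 8.85 to 16.1 FPKM in AAN mice (median 14.3). The groups did not overlap, and the log2 fold change of 1.32 (SE 0.21, adjusted p = 0.000223) was 0.57 after median of ratios scaling (adjusted p = 0.0203, under the 2-fold limit). *Procr*, the endothelial protein C receptor, was at 0.288, 0.234, 0.532 and 0.370 FPKM in sham and at 1.45 to 4.69 FPKM in AAN mice (median 3.29), also without overlap and with a log2 fold change of 2.87 (SE 0.31, adjusted p = 9.71e-06). *Procr* minus *Thbd* differed by 1.55 (SE 0.47, exact permutation test, p = 0.0190, adjusted p = 0.0476). This pair passed narrowly: it was 0.44 (adjusted p = 0.339) with a pseudocount of 1 and 1.64 (adjusted p = 0.115) with the B mice alone, and it did not pass when any 1 mouse other than B614 was left out (adjusted p of 0.0595 to 0.0992). Of 8 endothelial markers, limma gave an adjusted p of at most 0.05 to 3 and an unadjusted p under 0.05 to 4, but 0 reached 2-fold, and their sum was 41.4 to 63.7 FPKM in sham and 63.5 to 83.9 FPKM in AAN mice. *Thbd* minus *Pecam1* and *Vwf* minus *Pecam1*, an endothelial marker, differed by 0.39 (SE 0.19) and -0.13 (SE 0.24), neither past the threshold (exact permutation test, adjusted p = 0.167 and 0.665), though *Vwf* minus *Pecam1* passed with a pseudocount of 1 (-0.66, adjusted p = 0.0102). *Pecam1* had the largest log2 fold change of the 8 markers, 0.93, where the median was 0.37 and the lowest, *Kdr*, was at -0.27. No pair with another endothelial marker was tested. *Plg*, the precursor of plasmin, did not exceed 0.0687 FPKM in any mouse.

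**Figure D4:**
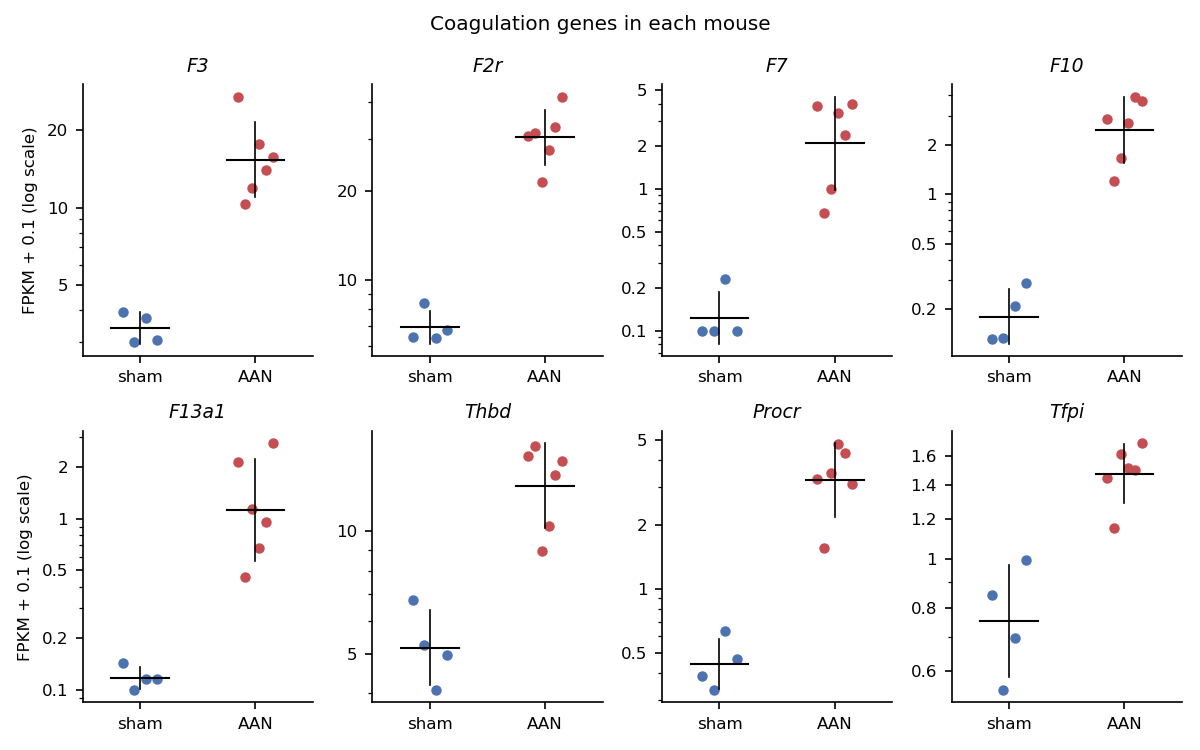
FPKM + 0.1 (y axis, log scale, each panel with its own range) of 8 coagulation genes in the 4 sham (blue) and 6 AAN mice (red), with 1 point per mouse, a horizontal bar for the mean and a vertical bar for 1 SD, both of the log2 values. In all 8 panels the AAN mice lie above the sham mice, by the least in *Tfpi*, and 3 sham mice of *F7* are listed at 0, drawn at 0.1.

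The fibrinogen chains varied most between mice: their standard errors of 0.83 to 1.13 were the largest of the 44 genes tested. Fibrinogen is made of an alpha, a beta and a gamma chain in equal numbers, encoded by *Fga*, *Fgb* and *Fgg*, which lie within 1 stretch of chromosome 3. *Fgg* was at 2.08, 0.476, 3.72 and 2.59 FPKM in sham mice. In AAN mice it was at 45.5 (A483), 1.12 (B614), 12.1 (B630), 26.1 (B639), 47.5 (B642) and 94.4 FPKM (B666). In 5 of the 6 AAN mice it was above every sham mouse, while B614 lay within the sham range. *Fga* was at 4.57, 0.509, 3.48 and 6.21 FPKM in sham, and at 24.4, 2.25, 5.04, 10.7, 21.6 and 41.7 FPKM in the AAN mice in the same order. *Fgb* was at 0.585, 0, 1.10 and 1.08 FPKM in sham and at 4.86, 0, 1.08, 2.55, 3.18 and 9.56 FPKM in AAN mice. The AAN mice came in the same order for *Fga* and *Fgb*, from B666 down to B614, and *Fgg* exchanged A483 and B642 alone.

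The log2 fold change was 3.45 for *Fgg* (SE 1.02, adjusted p = 0.0119), 2.08 for *Fga* (SE 0.83, adjusted p = 0.0462) and 1.78 for *Fgb* (SE 1.13, adjusted p = 0.189). *Fgb* passed only when B614 was left out (2.63, adjusted p = 0.0123), and the call of *Fga* was lost after median of ratios scaling (1.35, adjusted p = 0.190) and without any one of the mice B634, B636, A483, B639, B642 or B666 (adjusted p of 0.0615 to 0.167). After quantile normalization *Fgg* was at 2.70 (adjusted p = 0.0591). The ratio of the chains was not constant: *Fgg* over *Fga* was 0.418 to 1.07 in sham mice and 2.20 to 2.45 in the AAN mice other than A483 at 1.86 and B614 at 0.498. *Fgg* overlaps *Gm30097*, which did not exceed 0.244 FPKM. Of 8 hepatocyte markers tested 1 was called higher and 4 lower, with sums of 717 to 993 FPKM in sham and 136 to 371 FPKM in AAN mice, most of it *Cyp2e1* and *Ttr*. The 1 called higher was *Hpx*, at 0 to 0.411 FPKM in sham and 0.216 to 1.35 FPKM in AAN mice (limma, 1.86, SE 0.50, adjusted p = 0.00725). *Serpina1a* was at 1.28 (SE 0.59) and not called. The part of hepatocytes in the fibrinogen values was not tested. *Cyp3a11*, *Cps1* and *Ahsg* were under 0.1 FPKM in all mice, and *Alb* was at 1.5 to 3.88 FPKM in sham and 0.261 to 1.44 FPKM in AAN mice.

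**Figure D5:**
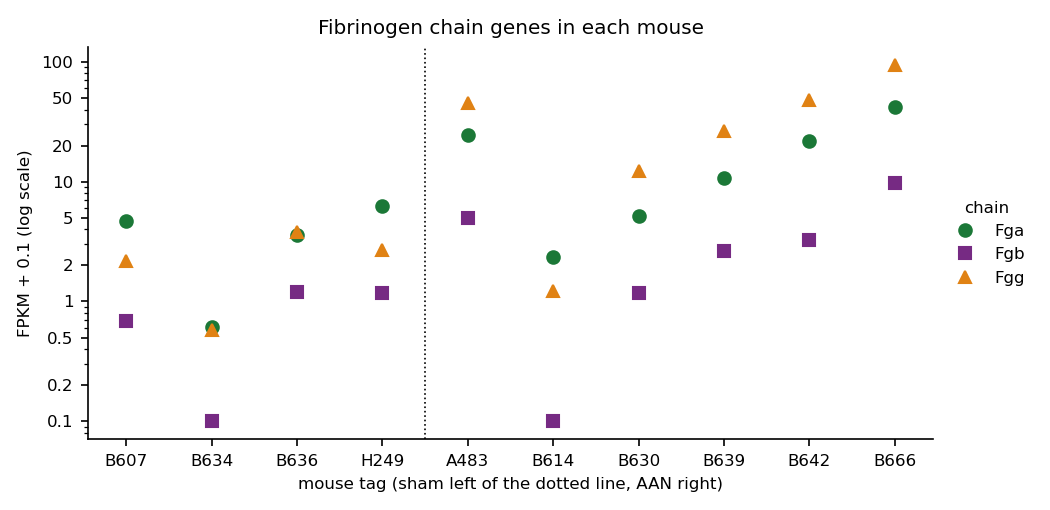
FPKM + 0.1 (y axis, log scale) of the 3 fibrinogen chain genes in each of the 10 mice (x axis, by tag), sham mice on the left of the dotted line and AAN mice on the right. The chains go up and down together over the AAN mice, highest in B666 and lowest in B614, and the values at 0.1 are those of *Fgb* listed at 0 in B634 and B614.

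The promoter windows of the fibrinogen chains are shown because these neighbouring genes varied together over the mice. They come from RefSeq on GRCm38.p6, end at the last base before the annotated start of the gene, and are written 5′ to 3′ on the strand of the gene: *Fgg* at chr3:83007474-83007723 (plus strand), *Fga* at chr3:83025903-83026075 (plus strand) and *Fgb* at chr3:83049864-83050113 (minus strand). The capitals mark matches to TTCNNNGAA (STAT), CTGGGAA (STAT3 element) and TTGCNNAA (C/EBP) on either strand.
Fgg: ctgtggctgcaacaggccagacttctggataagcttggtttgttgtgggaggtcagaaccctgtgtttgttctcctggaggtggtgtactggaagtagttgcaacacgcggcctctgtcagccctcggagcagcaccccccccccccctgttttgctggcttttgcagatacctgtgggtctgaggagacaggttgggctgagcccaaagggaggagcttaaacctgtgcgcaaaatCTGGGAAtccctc
Fga: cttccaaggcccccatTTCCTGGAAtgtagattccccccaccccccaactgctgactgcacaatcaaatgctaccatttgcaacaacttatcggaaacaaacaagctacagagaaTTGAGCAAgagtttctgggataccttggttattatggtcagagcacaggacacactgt
Fgb: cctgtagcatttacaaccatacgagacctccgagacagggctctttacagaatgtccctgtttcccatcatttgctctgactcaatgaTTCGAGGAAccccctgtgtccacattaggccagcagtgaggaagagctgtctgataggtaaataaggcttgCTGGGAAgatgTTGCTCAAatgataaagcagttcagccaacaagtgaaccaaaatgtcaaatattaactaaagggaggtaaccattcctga
*Fgg* holds 1 match, to the STAT3 element from 13 to 7 bases before its start. *Fga* holds a STAT match from 234 to 226 and a C/EBP match from 135 to 128 bases before the start in RefSeq. *Fgb* holds 1 match to each motif, the STAT match from 162 to 154, the STAT3 element from 91 to 85 and the C/EBP match from 80 to 73 bases before its start. No single motif of the 3 was found in all 3 windows.

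Among the 29 genes called higher, B614 was the lowest AAN mouse in 18, and it was also the lowest in 51% of the 6126 genes called higher over the whole cortex. B642 was the highest in 9 and B666 in 8 of the 29, against 22.3% and 21% of the same 6126 genes. Without B614, 31 of the 51 genes were called higher and 3 lower. Over the whole cortex that fit called 6396 higher and 703 lower of 17102 genes tested.

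The rest of both systems was read from 57 further complement, coagulation and fibrinolysis genes, of which 50 have values and 38 were tested. The call was higher for 22 and lower for 4, where 35.8% and 3.43% of all genes tested were so called. After median of ratios scaling it was higher for 18 and lower for 8, against 18.9% and 10.7% of all genes. The largest increase was that of *Serpina10*, the protein Z-dependent inhibitor of factor X, which went from at most 0.0909 FPKM in sham to 12.7 to 39.4 FPKM in AAN mice (median 28.6), a log2 fold change of 7.51 (SE 0.30). *Itgam*, a chain of complement receptor 3, rose from at most 0.109 FPKM to 2.94 to 10 FPKM (5.25, SE 0.32). In the other direction, *Serpinf2*, the inhibitor of plasmin, went from 54.9 to 105 FPKM in sham to 11.4 to 26.9 FPKM in AAN mice, a log2 fold change of -2.46 (SE 0.26). *Proc*, which encodes protein C, was at 93.0 to 122 FPKM in sham and 27.6 to 36.3 FPKM in AAN mice (-1.76, SE 0.15), so this gene was lower while *Procr* and *Thbd* were higher. *F13b*, the carrier subunit of factor XIII, was at 7.11 to 49.6 FPKM in sham and 1.47 to 25.7 FPKM in AAN mice, with overlapping groups and a log2 fold change of -1.79 (SE 0.72, adjusted p = 0.0474) that passed in 2 of the 10 fits with 1 mouse left out. The 8 fibroblast and stroma markers were all higher, from sums of 32.8 to 48.6 FPKM in sham to 143 to 341 FPKM in AAN mice, and their part in these values was not tested.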

How the data were processed

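Kidney cortex RNA of 4 sham and 6 AAN mice was sequenced as paired-end TruSeq libraries on the HiSeq Xten. The deposited values are FPKM per gene, which the authors computed with Stringtie after mapping reads to GRCm38 (mm10) with Hisat2; the annotation release is not given in the sources used here, nor is the strand use or the handling of shared fragments. The authors tested counts with edgeR; the files hold FPKM, so limma 3.58.1 (lmFit, eBayes with trend and robust, R 4.3.3) was fitted to log2(FPKM + 0.1) of genes whose mean reached 0.1 FPKM, with Benjamini-Hochberg adjustment and no scaling between mice. A fold change on this scale understates that of low genes. Symbols were paired to 21650 of 21792 genes, and 142 remained without one. Depth was recovered from the step of 1 fragment in low values of genes with 1 transcript, of which 95.1% to 96.9% were whole within 0.05; limits from 3 fragments cover counting error only. Gene positions came from GENCODE on GRCm38 and promoter windows from RefSeq on GRCm38.p6.

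The 15 gene pairs were compared by exact two-sided permutation over 210 splits of the mice, with Benjamini-Hochberg adjustment over the pairs. The genes, lists, pairs and alternatives were chosen with earlier results of these data known. Values per mouse are given for the most abundant and the most changed gene of each role (mean of at least 1 FPKM in 1 group), the genes called lower, those whose call changed with median of ratios scaling, and pairs that passed. The other pathway genes named are the 3 largest increases and decreases that were called, with a mean of at least 1 FPKM where higher, and genes of pairs. Of these, 1 increase and 1 of the pairs are not reported here. Genes named for a single mouse, an overlap or a value below the filter were chosen after their values were seen. The labels give no batch. Each mouse is 1 biological replicate. The fit and the exact test were tested on simulated data. Alternatives were pseudocounts of 1 and 0.01, low values kept or a higher filter at 1 FPKM, median of ratios, quantile and non-mitochondrial scaling, limma without trend and robust, no fold limit, each mouse left out and the mice with B tags alone. Other steps ran in Python 3.11.15 with pandas 2.3.3, numpy 2.4.6 and scipy 1.17.1, and figures in matplotlib 3.10.9.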

Additional observations from a re-analysis of the deposited data

Results flagged for a closer look

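In 7 of the 88 groups of mice tested over the 44 genes, 1 mouse lay farther from the others than Dixon's 95% critical value, where chance gives about 4.4 (1 in 20). The AAN mouse B614 was high in 3 genes: *Cfd* at 1.38 FPKM (others 0.133 to 0.481), *C8g* at 2.12 FPKM (others 0.867 to 1.33) and *F5* at 1.57 FPKM (others 0.451 to 0.701). The AAN mouse B630 was low in *Cr1l*, at 3.05 FPKM against 4.33 to 5.10 FPKM. The sham mouse H249 was high in *Cd55*, at 2.17 FPKM against 1.43 to 1.52 FPKM. *Fcna* at 0.0732 FPKM in the sham mouse B607 and *F7* at 0.131 FPKM in the sham mouse B636 stood out because the other 3 sham mice were listed at 0. For comparison, 3 fragments would allow 0.1255 to 0.1629 FPKM of *Fcna* and 0.0928 to 0.120 FPKM of *F7*.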

How the results depend on the processing

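No paired analysis was possible because the labels tie no sham mouse to an AAN mouse: each is a different animal with its own tag, and the replicate numbers follow accession order alone. The count of the 51 genes called higher was 21 to 32 over the 20 alternatives, and that called lower was 3 in most of them. The count called lower was 1 with a pseudocount of 1, 2 with the filter at 1 FPKM, 4 after median of ratios scaling and 6 after quantile normalization, which added *Colec11*, *F5* and *Masp2*. Calls over all genes moved too, from 6126 higher and 588 lower of 17129 in the main fit. They were 2909 and 420 of 17129 with a pseudocount of 1, and 4025 and 489 of 12271 with the filter at 1 FPKM. After median of ratios scaling they were 3201 and 1811 of 16976, and after quantile normalization 2479 and 2102 of 17004. With no fold limit they were 9482 and 1027 of 17129. With a pseudocount of 1 the calls of *Cd46*, *Cfd*, *Fcna*, *Masp1*, *C8a* and *C8g* were lost, and after quantile normalization those of *C2*, *C7*, *Cd46*, *Cfd*, *Fcna*, *Fga*, *Fgg* and *Thbd*. The other pathway genes called lower numbered 4, but 8 after median of ratios scaling, 7 after quantile normalization, 5 with no fold limit, 3 with a pseudocount of 1 (without *Proz*), 3 with low values kept, with non-mitochondrial scaling or with limma without trend and robust (each without *F13b*), 2 with the B mice alone and 2 to 4 with 1 mouse left out (without *F13b* and *Proz*). Leaving out 1 mouse gave 27 to 31 of the 51 genes called higher, 3 called lower, and 5 to 7 gene pairs past the threshold. Over all genes those fits called 5488 to 6684 higher and 524 to 703 lower, of 17033 to 17233 tested.

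The direction turned in 11 genes, 10 of which were not called: *C4a* (-0.62), *Cr1l* (-0.11), *Cd46* (-0.11), *Vwf* (-0.30) and *Tfpi* (-0.22) after quantile normalization; *Cfb* (-0.72 and -0.20), *Cr2* (-0.27 and -0.91), *Cd55* (-0.63 and -0.96) and *Cd59a* (-0.67 and -0.77) after median of ratios scaling and quantile normalization; *Mbl2* with a pseudocount of 0.01 (0.53); and *Cfb* with the B mice alone (-0.03). With 1 mouse left out, *Mbl2* ranged from -0.58 to 0.32, *Colec11* from -0.17 to 0.28, *Cfb* from -0.11 to 0.32, *Cr2* from -0.04 to 0.30 and *Cd59a* from -0.31 to 0.37. The pairs that turned had not passed: *F13a1* minus *Adgre1* turned to 1.45 and *Vwf* minus *Pecam1* to 0.64 with a pseudocount of 0.01, *C5ar1* minus *C5ar2* to -0.59 with it and -0.18 with the B mice alone, and *Cd55* minus *Cd59a* (-0.16) and *Vwf* minus *Pecam1* (0.03) turned with the B mice alone. With 1 mouse left out, *C5ar1* minus *C5ar2* ranged from -0.24 to 0.52, *Cd55* minus *Cd59a* from -0.26 to 0.34 and *Vwf* minus *Pecam1* from -0.31 to 0.00. The cause of these turns was not tested. Genes under 1 FPKM rest on few fragments.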
